A study of Bos grunniens with 3 samples.

Results

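*AREG* (ENSBGRG00000019294) encodes amphiregulin, a growth factor of the epidermal growth factor family. It was taken as the gene whose symbol is *AREG*, which matched 1 of the 26924 genes counted, and its level is described in every library, in cells sorted by keratin and stem cell genes, and beside the genes found in the same cells. The libraries were 10x Genomics single-cell libraries of scapular skin of healthy Tianzhu white yak aged about 2 years, 1 each from anagen, catagen and telogen, the growth, regression and resting phases of the hair follicle. Skin was digested with dispase, hair follicles were pulled out and their cells were released with trypsin. The paper describes this handling for anagen and catagen skin. It reports no telogen library, so that the same handling of all 3 libraries cannot be taken from it. The protocol text deposited with the catagen library names anagen, whereas its title and stage label name catagen, and which animals went into which library is not given in the sources used here. With 1 library per stage, stage, animal and library cannot be told apart, and no p-value is given: each interval below is a 95% interval that covers counting error only.

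Amphiregulin is made as a membrane-bound precursor and is released when the protease ADAM17 cuts it outside the cell, after which it binds the receptor EGFR on the same or a neighbouring cell. Keratinocytes are a well-known source of it, and the ERBB signalling it starts drives their growth and, in the hair follicle, bears on the passage between phases of the cycle. *AREG* lies in a cluster of related ligand genes, and in the RefSeq annotation of the yak assembly Bosgru_T2T1.0 its neighbours are *BTC* on one side and *EREG* and *EPGN* on the other, each of them an EGFR ligand gene.

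The libraries kept 11987 anagen, 12062 catagen and 14502 telogen cells with at least 200 detected genes, holding 82816430, 51537357 and 103430933 UMIs (unique molecular identifiers, each counting 1 captured RNA molecule), with medians of 5256, 3350 and 5584 UMIs per cell. The smallest anagen cell had 2404 UMIs, against 500 in both other libraries. The libraries shared 40 to 49 cell barcodes pairwise, and doublets were left in. The matrix headers name 3 different versions of Cell Ranger, so the software differs with the stage as well.

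*AREG* was highest in anagen and lowest in telogen. It had 53848 UMIs in anagen, 15813 in catagen and 16857 in telogen, which is 650.2 CPM (UMIs of the gene per 1000000 UMIs of the library or gate; 644.7 to 655.7), 307 CPM (302 to 312) and 163 CPM (160 to 166). The anagen level was 2.12 times the catagen level and 3.99 times the telogen level, and the catagen level was 1.88 times that of telogen. As log2 ratios these were −1.08 for catagen over anagen (−1.11 to −1.06), −2.00 for telogen over anagen (−2.02 to −1.97) and −0.91 for telogen over catagen (−0.94 to −0.88). The 3 comparisons share libraries and are not independent of each other.

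These differences can be read against all genes. Of 6054 genes with at least 10 CPM in either library, 3.47% were at least 2-fold lower and 4.41% at least 2-fold higher in catagen than in anagen, and 2.63% had a lower ratio than *AREG*. Of 5733 genes, 7.83% were at least 2-fold lower and 3.0% at least 2-fold higher in telogen than in anagen, and 0.942% had a lower ratio than *AREG*. Of 5971 genes, 12.0% were at least 2-fold lower and 4.1% at least 2-fold higher in telogen than in catagen, and 13.1% had a lower ratio than *AREG*, which was itself short of 2-fold there. The median gene had log2 ratios of 0.05, −0.17 and −0.24, and relative to it *AREG* stood at −1.13, −1.82 and −0.67. With median-of-ratios scaling the telogen over catagen ratio of *AREG* was −0.41.

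*AREG* was spread very unevenly over cells. At least 1 *AREG* UMI was found in 51.5% of anagen, 23.0% of catagen and 24.3% of telogen cells. When each cell was thinned at random to 1500 UMIs, which left out 2263 catagen and 2932 telogen cells that were shallower, the shares were 31.3% (30.5 to 32.1), 14.8% (14.1 to 15.5) and 11.2% (10.6 to 11.8). Cells with 10 or more *AREG* UMIs numbered 1340 in anagen, 415 in catagen and 393 in telogen, and these 11.2%, 3.44% and 2.71% of the cells held 74.3%, 60.9% and 55.9% of the *AREG* UMIs. The highest single cell had 596 *AREG* UMIs in anagen, 127 in catagen and 110 in telogen. Most *AREG* RNA in each library was thus in a small minority of cells, and the question of which cells these were was put to the keratin and stem cell genes.

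Cells were gated by known genes, none of which is *AREG*. A cell entered the gate whose genes, summed, stood highest over their mean in the 3 libraries, at 2-fold or more and with at least 3 UMIs. *KRT1* and *KRT10*, the keratins of differentiating epidermis, defined the suprabasal gate. *KRT14*, *KRT5* and *COL17A1*, genes of the layer attached to the basement membrane, defined the basal gate. *SOX9*, *LHX2*, *LGR5* and *NFATC1*, transcription factors and a receptor of follicle stem cells, defined the stem gate. *KRT79* stood for the upper follicle, *KRT75* for the companion layer, *KRT71*, *KRT25*, *KRT27* and *KRT28* for the inner root sheath, and *KRT85* and *KRT35* for the hair cortex. In anagen, catagen and telogen, 44.5%, 53.1% and 56.0% of cells entered no gate. Cells that passed more than 1 gate numbered 944, 609 and 1214 and went to the one with the higher fold.

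Genes left out of the gating bore out the basal, inner root sheath and cortex names, and the suprabasal and stem names in part. None is given for the companion and upper follicle gates. *ITGA6* had 274, 300 and 308 CPM in basal cells, against at most 243 CPM in the other epithelial gates. *GATA3* had 75.3, 135.5 and 74.5 CPM in inner root sheath cells, against 40.1, 88.1 and 34.5 CPM in suprabasal cells, the next epithelial gate. *KRTDAP* was lower in suprabasal than in upper follicle cells in catagen only, at 5824 against 7385 CPM. *SBSN*, a gene of cornifying epidermis, had 7133 CPM in anagen suprabasal cells against 1217 CPM in basal cells. In catagen, however, suprabasal cells had 4165 CPM of it, below upper follicle (12322 CPM) and companion cells (4596 CPM). In telogen they had 2528 CPM, below upper follicle (5935 CPM), stem gate (2965 CPM) and companion cells (2852 CPM). *HOXC13*, a regulator of hair keratins, had 77.8, 161 and 107 CPM in cortex cells and no more than 19.7 CPM in the other 6 epithelial gates. *CXCL14* was higher in stem than in basal cells of every library, at 477 against 195 CPM in anagen. *SPARC* was higher in stem than in basal cells in catagen, at 1342 against 803.5 CPM, but lower in anagen, at 1183 against 1495 CPM, and in telogen, at 1204 against 1815 CPM. *SOX9* alone gave 88.5%, 80.2% and 84.1% of the stem gate genes' UMIs in stem gate cells, so the stem gate is mainly a gate on *SOX9*. Gates cut a continuous level: in anagen, 280 suprabasal cells lay between 2 and 2.5-fold, and 466 cells that were between 1.5 and 2-fold for *KRT1* and *KRT10* stayed outside.

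Suprabasal cells had the highest *AREG* level of the 7 epithelial gates in anagen and telogen, and in catagen they were next to upper follicle cells. Their level was 1712 CPM (1690 to 1735) in 1464 anagen cells, 916 CPM (896 to 935) in 1644 catagen cells and 530 CPM (518 to 542) in 1624 telogen cells. The upper follicle cells had 1093 CPM (1054 to 1133) in anagen, 954 CPM (907 to 1003) in catagen and 278 CPM (268 to 288) in telogen. The catagen intervals of these gates overlap, so that their order in catagen cannot be told. Suprabasal cells held 15.6%, 18.3% and 13.6% of all UMIs but 41.1%, 54.6% and 44.0% of the *AREG* UMIs.

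**Figure D1:**
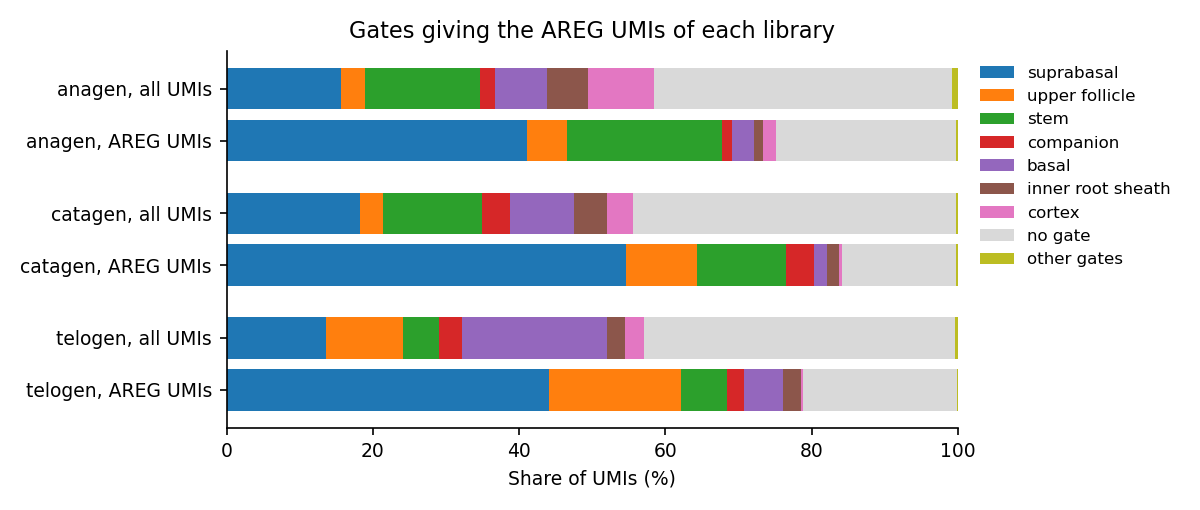
Share of all UMIs and of *AREG* UMIs (%, bars adding to 100) that came from each gate, for the anagen, catagen and telogen libraries. The suprabasal gate gave 41.1%, 54.6% and 44.0% of the *AREG* UMIs from 15.6%, 18.3% and 13.6% of all UMIs.

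Stem gate cells followed, with 876 CPM (860 to 892) in 2241 anagen cells, 278 CPM (265 to 291) in 1770 catagen cells and 209 CPM (197 to 222) in 873 telogen cells. The highest anagen stem gate cells held 596 and 580 of the 11429 *AREG* UMIs of that gate, where the highest suprabasal cell had 203. Without the cell of 596 UMIs the anagen stem level was 832 CPM. The companion layer cells had 406, 300.5 and 121 CPM. In catagen the intervals of the companion (277 to 325) and stem gates overlap. The basal cells had 278, 63.3 and 44.1 CPM, far below the suprabasal cells of the same library. Cortex cells, which build the hair shaft, had 128, 36.5 and 16.1 CPM, the lowest level of the 7 gates in each library, although in anagen the interval (120 to 137) overlaps that of the inner root sheath (132 to 154). Inner root sheath cells, which mould the shaft, had 143, 110 and 162 CPM, so that in telogen they were above companion, basal and cortex cells.

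Suprabasal cells exceeded stem gate cells in each library. The log2 ratio of their *AREG* levels was 0.97 in anagen (0.93 to 1.0), 1.72 in catagen (1.65 to 1.79) and 1.34 in telogen (1.25 to 1.43). The size of this gap depended on the definition of the stem gate: with *LHX2* as its only gene the ratios were 2.71, 3.43 and 3.83. With gates cut at 4-fold the anagen ratio was 0.43.

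**Figure D2:**
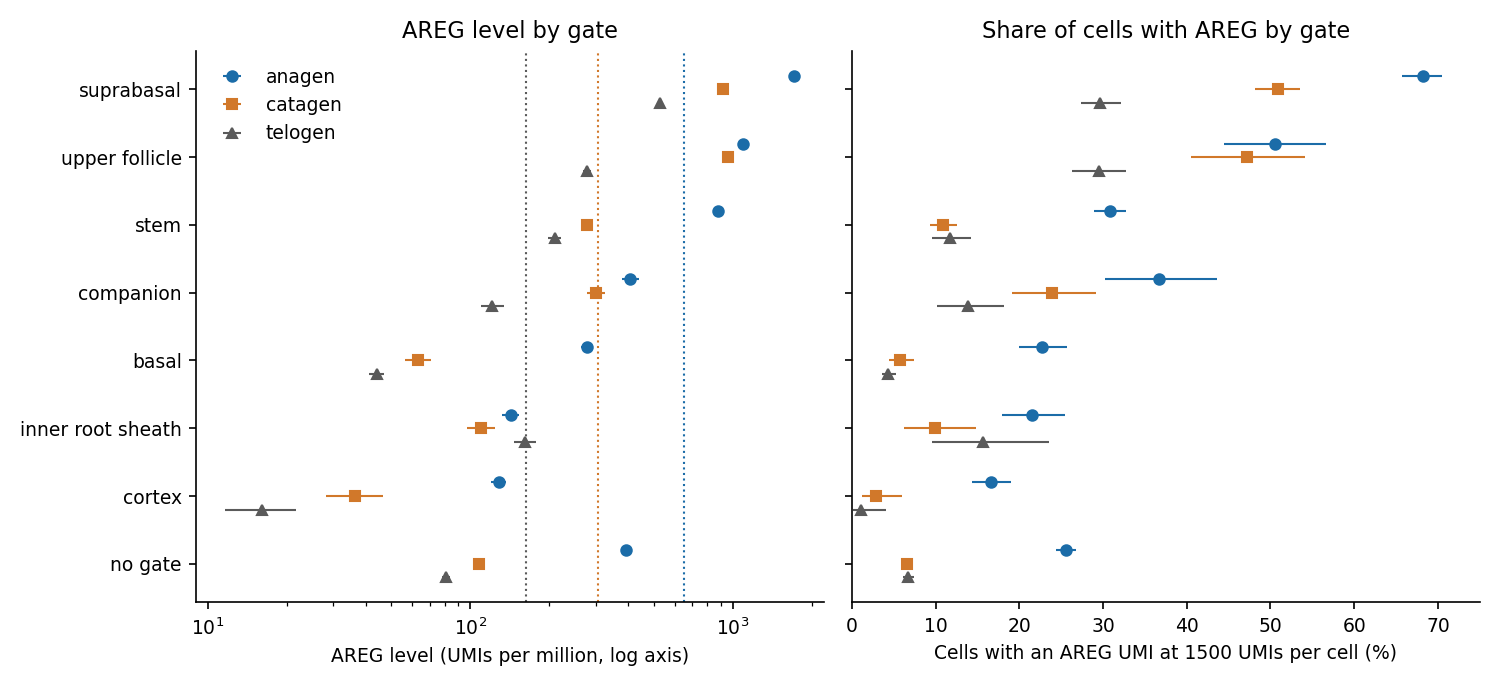
Left, *AREG* level in each gate (CPM, log axis) with exact Poisson intervals, and dotted lines at each whole library's level; right, share of cells with an *AREG* UMI after thinning to 1500 UMIs (%) with exact Clopper-Pearson intervals, for 3 libraries. Suprabasal cells stood at 1712, 916 and 530 CPM and cortex cells at 128, 36.5 and 16.1 CPM in anagen, catagen and telogen.

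Shares of thinned cells with an *AREG* UMI also put suprabasal and upper follicle cells first and cortex cells last, but the gates between them in another order than the levels did. In suprabasal cells they were 68.2% (65.7 to 70.6) in anagen, 50.9% (48.2 to 53.6) in catagen and 29.7% (27.3 to 32.1) in telogen, and without thinning 91.0%, 70.2% and 54.0%. In upper follicle cells they were 50.5%, 47.2% and 29.5%, so that telogen upper follicle and suprabasal cells were alike in share although their levels differed. In stem gate cells they were 30.8%, 10.9% and 11.7%, and the catagen and telogen intervals (9.39 to 12.5 and 9.58 to 14.2) overlap. In companion cells they were 36.7%, 23.9% and 13.8%, above those of stem gate cells, although the companion level was the lower one in anagen and telogen. The intervals of these gates were apart in catagen only. In inner root sheath cells the shares were 21.5%, 9.95% and 15.7%, and in basal cells they were 22.7%, 5.79% and 4.36%. In cortex cells they were 16.6%, 2.93% and 1.13%.

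Endothelial cells were taken as a reference for free RNA in the droplets, which can give UMIs to cells that do not express a gene. That they lack *AREG* themselves is a premise that was not tested. A gate on *PECAM1*, *CDH5*, *VWF* and *EMCN* held only 63 anagen, 23 catagen and 36 telogen cells, with medians of 4144, 2425 and 4455 UMIs, against 8162, 5252 and 7728 UMIs in suprabasal cells. *AREG* was found in 14.3% (6.75 to 25.4) of the 63 thinned anagen cells and in 1 of 18 thinned catagen cells (0.141 to 27.3%). In telogen 0 of 34 thinned cells had it (0 to 10.3%). In catagen all 39 *AREG* UMIs of this gate were in 1 cell. The endothelial gate cells carried 1103 to 3271 CPM of *SBSN* and at most 13.7 CPM of the endothelial gene *CLDN5*, so that they are a mixed reference. Intervals of the suprabasal and upper follicle shares lay above these endothelial bounds in every library. Those of the stem and companion shares did so in anagen. In telogen the stem (9.58 to 14.2) and companion (10.1 to 18.2) intervals overlapped the endothelial one. In catagen, where the endothelial interval rests on 18 cells, all other gates overlapped it. Basal, cortex and inner root sheath intervals overlapped the endothelial one in every library. So few and mixed cells cannot decide whether these shares are background. Stem and companion intervals lay above the cortex interval of the same library in all 3 stages. The basal interval did so in anagen (19.9 to 25.7 against 14.4 to 19.0). The inner root sheath interval did so in catagen (6.27 to 14.8 against 1.19 to 5.94) and telogen (9.55 to 23.6 against 0.137 to 4.02).

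The ratio of *AREG* to suprabasal genes differed between gates, and its order depended on the gene it was set against. Per 100 UMIs of *KRT1* and *KRT10*, which themselves define the suprabasal gate, suprabasal cells held 4.70 *AREG* UMIs in anagen, 2.22 in catagen and 1.07 in telogen, and stem gate cells 27.1, 20.6 and 9.14. Per 100 UMIs of *SBSN*, which no gate uses, suprabasal cells held 24.0, 22.0 and 20.95, and stem gate cells 30.1, 9.04 and 7.06. Stem gate cells were thus above suprabasal cells in both ratios in anagen only, and in catagen and telogen they were above in the one and below in the other. Inner root sheath cells held 11.2, 25.9 and 15.0 per 100 UMIs of the keratins and 8.998, 6.36 and 19.7 per 100 UMIs of *SBSN*. The part of free RNA in the *AREG* UMIs of these gates was not tested.

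*AREG* followed the suprabasal keratins in a graded way. Cells were put in bins of their summed *KRT1* and *KRT10* level as a fold of its mean over the libraries. From the lowest bin (below 0.125-fold) to the bin of 4-fold and above, *AREG* went from 173 to 1594 CPM in anagen, from 83.3 to 929 CPM in catagen and from 50.1 to 566 CPM in telogen. It rose at each step in catagen and telogen, and in anagen it was highest, at 1743 CPM, between 2 and 4-fold. Against *KRT14* the highest bins had the least *AREG*, going from 921 to 205 CPM in anagen, from 559 to 53.8 CPM in catagen and from 424 to 53.0 CPM in telogen.

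The stem cell genes split. Against *LHX2*, a transcription factor of hair follicle progenitors, *AREG* was lowest in the highest bin, going from 775 to 203 CPM in anagen, from 373 to 75.0 CPM in catagen and from 187 to 35.2 CPM in telogen. Against *SOX9*, which marks the outer root sheath and bulge, it was lowest in a middle bin. In anagen it was 676 CPM in the lowest bin, 440 CPM between 1 and 2-fold and 1258 CPM at 4-fold and above. In catagen the lowest, middle (0.5 to 1-fold) and highest bins had 342, 175 and 513 CPM, and in telogen 202, 96.9 and 427 CPM. The cells with the most *SOX9* thus had more *AREG* than those with almost none, in each library.

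**Figure D3:**
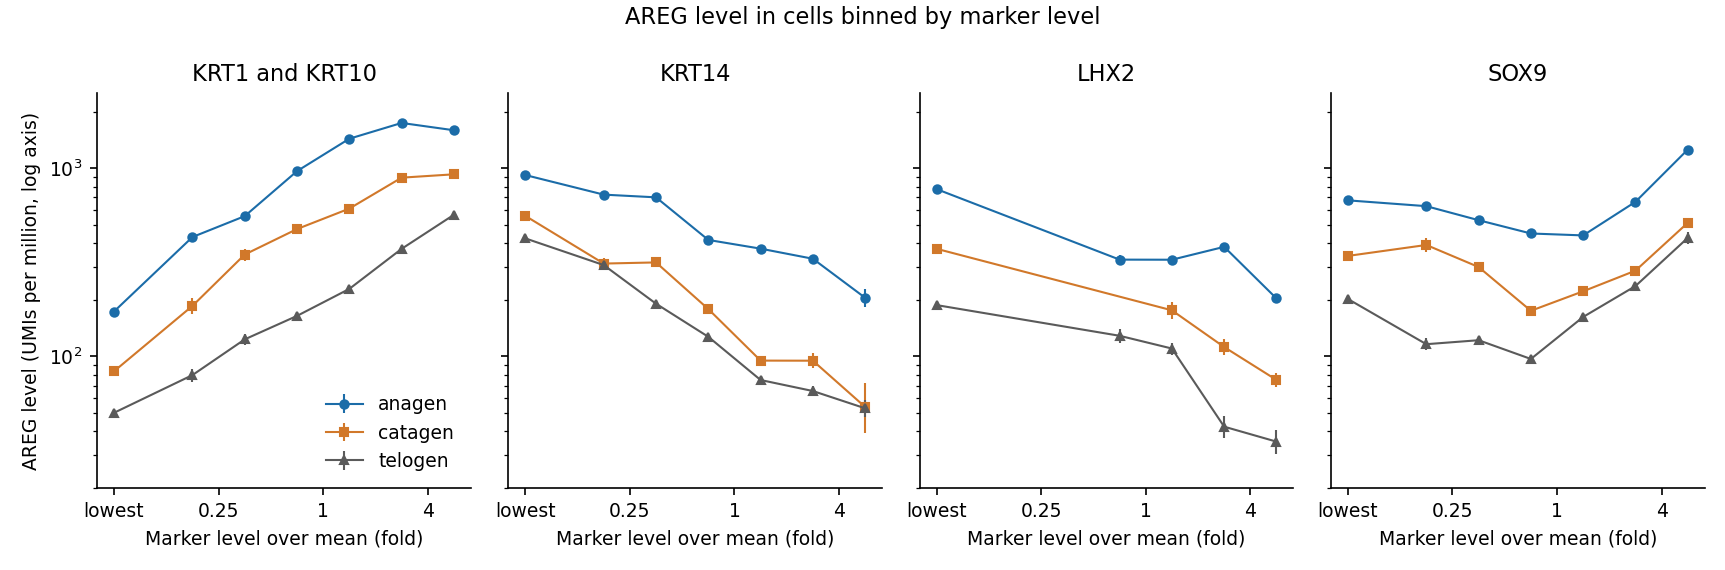
*AREG* level (CPM, log axis, exact Poisson intervals) in cells binned by the level of *KRT1* and *KRT10*, *KRT14*, *LHX2* or *SOX9*, given as a fold of the mean over the 3 libraries (log axis, "lowest" below 0.125-fold, bins of fewer than 50 cells not drawn). *AREG* ranged from 173 to 1743 CPM over the bins of *KRT1* and *KRT10* in anagen, and from 440 to 1258 CPM over those of *SOX9*.

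This split ran through the stem gate itself. Stem gate cells with no *LHX2* UMI had 1470 CPM of *AREG* in anagen, 564 CPM in catagen and 394 CPM in telogen, against 319, 101 and 77.5 CPM in those with one. The log2 ratios were 2.20 (2.14 to 2.27), 2.47 (2.32 to 2.63) and 2.35 (2.13 to 2.56). *SOX9*, through which cells without *LHX2* mostly entered the gate, differed less, with 2513 against 2146 CPM in anagen. After thinning, 40.9% of anagen stem gate cells without and 20.4% of those with *LHX2* had an *AREG* UMI, 16.4% and 7.62% in catagen, and 20.8% and 4.92% in telogen. The median depths of these cells were 4304 and 4558 UMIs in anagen. Those without *LHX2* held 9278 of the 11429 *AREG* UMIs of the anagen stem gate.

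Other genes moved with this split. Stem gate cells without *LHX2* had more *KRT1*, at 2629 against 976 CPM in anagen, 1303 against 241 CPM in catagen and 2101 against 456 CPM in telogen. They had more *CLDN4*, a tight junction claudin, at 3802 against 1772 CPM in anagen and 1073 against 230.0 CPM in catagen. They had less *SPARC*, at 523 against 1800 CPM in anagen, less *LGR5*, at 12.2 against 78.2 CPM, and less *CXCL14*, at 203 against 733 CPM. *KRT79*, the gene of the upper follicle gate, was higher in them, at 31.1 against 11.3 CPM in anagen, 16.6 against 2.79 CPM in catagen and 33.4 against 11.6 CPM in telogen. *SBSN* did not follow in anagen, at 2810 against 3003 CPM. The part of these differences in that of *AREG* was not tested. Stem gate cells with a UMI of *PTHLH*, *NGFR* or *ENPP1* had 683 CPM of *AREG* in anagen, 77.9 CPM in catagen and 158 CPM in telogen, each below the 900.5, 306 and 216 CPM of the others, and in telogen the intervals are 128 to 193 and 203 to 231.

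Within the suprabasal gate, *KRT77*, a further type II keratin, marked cells with more *AREG*. Cells with a *KRT77* UMI had 2179 CPM against 1519 CPM without in anagen, 1404 against 566 CPM in catagen and 960 against 475 CPM in telogen. Cells with *KRT77* were deeper, with medians of 10490.5 against 7626 UMIs in anagen, and at equal depth 78.2% (73.5 to 82.4) of them had an *AREG* UMI against 65.1% (62.2 to 67.9). Cycling cells, taken as those with at least 2 UMIs of the mitotic genes *TOP2A*, *CENPF* and *UBE2C*, had as much *AREG* as others in the anagen suprabasal gate, at 1725 against 1711 CPM. In the telogen suprabasal gate 36 cycling cells had a lower level, at 275 against 542 CPM. They were deeper, with medians of 15204.5 against 7624 UMIs. The intervals of their thinned shares overlap, at 14.7% (4.95 to 31.1) against 30.0% (27.6 to 32.5). In catagen 28 cycling cells had 778 against 920 CPM, but their thinned share was 55.6% against 50.8%, so that no order is read. Among cells of no gate they had 174 against 476 CPM, 20.04 against 123 CPM and 48.0 against 88.8 CPM in the 3 stages.

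The order of the stages was also compared inside gates. From anagen to catagen the *AREG* level was lower in each of the 7 epithelial gates, with a log2 ratio of −0.90 (−0.94 to −0.87) in suprabasal, −0.20 (−0.29 to −0.11) in upper follicle, −1.66 (−1.73 to −1.59) in stem and −0.44 (−0.59 to −0.28) in companion cells. The basal, inner root sheath and cortex gates had −2.13, −0.37 and −1.81. Their shares overlapped the endothelial reference in anagen and catagen, so that a difference in background cannot be told apart from one in expression there. In catagen and telogen the stem and companion shares overlapped that reference too. From anagen to telogen it was lower in 6 of the 7 gates, basal and cortex with the same limit, with −1.69 (−1.73 to −1.66) in suprabasal, −2.07 (−2.16 to −1.97) in stem and −1.97 (−2.05 to −1.90) in upper follicle cells. From catagen to telogen it was again lower in 6 of 7. The log2 ratio was −1.78 (−1.87 to −1.69) in upper follicle, −0.79 in suprabasal and −0.41 in stem gate cells. The basal, cortex, stem and companion gates had that limit here too. Whether these ratios differ between gates was not tested.

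The exception was the inner root sheath, where the telogen level was above that of anagen by 0.18 (0.00 to 0.36) and above that of catagen by 0.56 (0.33 to 0.79). This rests on few cells: 74 of the 411 telogen UMIs were in 1 of 167 cells, and without it the level was 135 CPM, below the 143 CPM of anagen and above the 110 CPM of catagen. The thinned shares were 21.5% in anagen, 9.95% in catagen and 15.7% in telogen, so that the share did not follow the level from anagen to telogen and no order is read from it.

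Setting the gates to their anagen shares of UMIs, with each gate's own *AREG* level, gave 285 CPM in catagen and 174 CPM in telogen, log2 ratios to anagen of −1.19 and −1.90. Setting each gate to its anagen level and keeping the library's own gate shares gave 690 and 633 CPM, or 0.09 and −0.04. The difference between the libraries was therefore, as arithmetic, one within gates, including the cells that entered no gate, which had 391, 108 and 80.8 CPM. This arithmetic does not hold the make-up inside a gate fixed. Cells without *LHX2*, for example, were 1141 of 2241 anagen and 670 of 1770 catagen stem gate cells, and the cells of no gate were not divided by type. The part of such shifts was not tested.

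The genes detected in the same cells as *AREG* were searched within gates. Odds ratios of detection were taken in thinned cells and pooled over the gates of a library (Mantel-Haenszel), with the cells of no gate as 1 further group. That group held 5331 of 11987 thinned anagen, 4907 of 9799 catagen and 5699 of 11570 telogen cells. It is not divided by cell type, so that differences between cell types remain in it. The search covered 3265 genes seen in at least 2% of cells of every library. Thinned cells with *AREG* numbered 3751, 1452 and 1291. The odds ratio was at least 1.5 in all 3 libraries for 61 genes, at least 2 for 16 genes and at most 0.67 for 43 genes, whereas the median gene had 0.980, 0.993 and 0.996. Without the division into gates, 43 genes reached 2.

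The 10 genes with the highest lowest-of-3 ratios were *CLDN4*, *SBSN*, *KRTDAP*, *SPINK5*, *PRDM1*, *LYPD5*, *C5orf46*, *KRT10*, *CCL20* and *KRT23*. *CLDN4* had odds ratios of 2.99 in anagen, 4.65 in catagen and 3.08 in telogen, and was found in 65.2% of anagen cells with *AREG* against 35.1% of those without. *KRTDAP*, a secreted protein of differentiating keratinocytes, had 3.61, 2.75 and 3.28. *SPINK5*, an inhibitor of the kallikrein proteases that shed the skin surface, had 3.20, 3.57 and 2.71. *PRDM1*, the transcription repressor BLIMP1, had 3.07, 2.48 and 3.39, and *CCL20*, a chemokine for Langerhans and T cells, had 2.32, 2.47 and 2.62. *KRT10* is itself a gate gene, so that its ratio is not independent of the gating.

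Within the suprabasal gate alone the ratios stayed above 1 in every library for *CLDN4* (2.78, 3.50 and 2.47), *SBSN* (2.62, 2.12 and 1.85), *SPINK5* (2.12, 2.58 and 1.81), *PRDM1* (3.50, 1.84 and 4.16), *LYPD5*, *C5orf46* and *CCL20*. Telogen was the exception for *KRTDAP*, with 0.280, and for *KRT23*, with 0.727. The median suprabasal cell had 9174 CPM of *KRTDAP* in anagen and 9134 CPM in telogen. Most thinned cells there thus had *KRTDAP*, its ratio rests on those that lacked it, and no reversal is read from it. The 5 genes at the other end were *PPP2R2B*, *WNT10A*, *LAMB3*, *JAG2* and *GNMT*. *LAMB3*, a chain of the laminin that anchors basal cells, had 0.504, 0.511 and 0.202. *JAG2*, a Notch ligand, had 0.522, 0.405 and 0.406, and *WNT10A*, a Wnt ligand of follicle epithelium, had 0.505, 0.289 and 0.415. Within the suprabasal gate alone these genes did not all stay low. *PPP2R2B* had 1.17, 2.91 and 0.473 there, *WNT10A* 1.17, 0.643 and 0.0, and *LAMB3* 0.934, 1.45 and 0.0. *JAG2* stayed below 1, with 0.571, 0.722 and 0.896. *GNMT* had 0.816 in anagen and 0.473 in telogen, and no value in catagen.

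**Figure D4:**
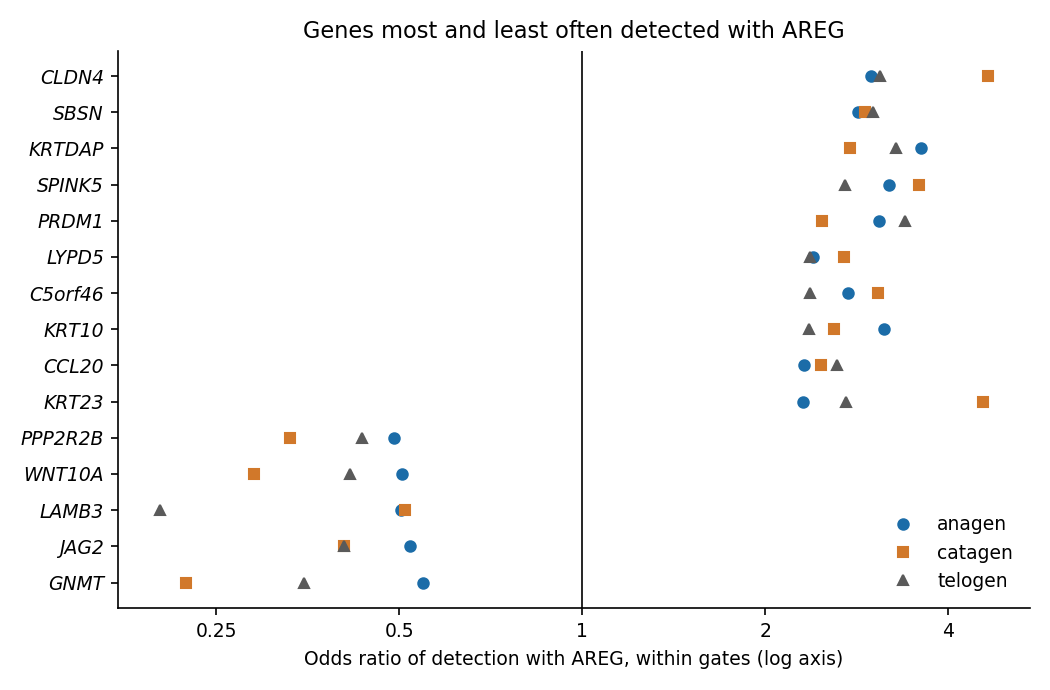
Odds ratio of detection with *AREG* within gates (log axis, line at 1) for those upper 10 genes and lower 5 genes, in thinned cells of each library. Cells of no gate formed 1 group of their own. The upper 10 lie between 2.31 and 4.65, and the lower 5 between 0.202 and 0.548.

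Of the gate genes, *LHX2* had odds ratios of 0.507, 0.552 and 0.417 with *AREG*, and *COL17A1*, the basal collagen, had 0.664, 0.377 and 0.421. *KRT14* had 0.582 and 0.425 in catagen and telogen but 1.001 in anagen. *SOX9* had 1.36, 1.17 and 1.40 when pooled over gates, but without the division into gates its catagen value was 0.789, and within the suprabasal gate it had 0.787, 0.678 and 0.803. Of the keratins outside the gating, *KRT17*, a keratin of the outer root sheath, had 2.67, 1.77 and 1.49, and *KRT15*, a keratin of basal and bulge cells, had 0.777, 0.526 and 0.378.

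Likeness was also taken across gates, as the Pearson correlation of log2(CPM + 10) over the 25 combinations of gate and library with at least 50 cells, for 1734 genes. The 5 genes most like *AREG* were *EZR* (0.887), *PLEKHM2* (0.885), *CLDN4* (0.872), *F3* (0.865) and *SBSN* (0.844). These values pool the libraries, so that differences between libraries enter them. Within anagen, catagen and telogen alone, *EZR* had 0.914, 0.953 and 0.697. *CLDN4* had 0.899, 0.953 and 0.638, and *SBSN* 0.860, 0.928 and 0.833. *F3* encodes tissue factor, the starter of clotting, and *EZR* encodes ezrin, which ties the membrane to actin. *F3* had 4955 CPM in suprabasal and 452 CPM in cortex cells of anagen, and 2647 and 154 CPM in telogen. The points of 1 library share depth and free RNA, so these values only describe.

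The other genes of the ERBB pathway did not all move with *AREG*. Of a list of 35 genes without *AREG*, 31 had a row and 17 reached 10 CPM in a library, while the symbols *EGFR* and *EGF* had no row and are not analysed here. In catagen against anagen, 1 of 17 was at least 2-fold lower and 0 were higher, where 3.47% and 4.41% of all genes were, with a median log2 ratio of 0.07. In telogen against anagen, 6 of 16 were at least 2-fold lower and 0 higher, where 7.83% and 3.0% of all genes were, with a median of −0.62 where the median over all genes was −0.17. In telogen against catagen, 6 of 17 were at least 2-fold lower and 2, *BTC* and *NRG1*, higher, where 12.0% and 4.1% of all genes were, with a median of −0.62 against −0.24 over all genes. Levels of different genes of this list are not set against each other here.

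Of the ligands, *HBEGF*, made in wounded epidermis, had the same order of stages as *AREG*, at 37.0, 15.9 and 6.37 CPM, log2 ratios of −1.22 for catagen and −2.54 for telogen over anagen. *EREG*, next to *AREG* in the genome, had 29.3 and 30.9 CPM in anagen and catagen and 4.71 CPM in telogen. *BTC*, the neighbour of *AREG* on the other side, was lower in catagen than in anagen, like *AREG*, but was highest in telogen, with 27.6, 14.7 and 45.4 CPM. Its log2 ratios were −0.91 for catagen over anagen, 0.72 for telogen over anagen and 1.63 for telogen over catagen. *NRG1*, a ligand of ERBB3 and ERBB4, did likewise, with 14.5, 7.68 and 25.4 CPM. *NRG2* had 6.29, 11.8 and 7.69 CPM, and *EPGN* stayed under 10 CPM in each library, with 3.01, 0.369 and 0.783 CPM.

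The ligands also differed in where they were found. *EREG* was higher in suprabasal than in stem gate cells in anagen, at 76.96 against 37.9 CPM, and in catagen, at 67.4 against 13.8 CPM, but not in telogen, at 3.85 against 6.75 CPM. *BTC* was highest in upper follicle cells in catagen and telogen, at 61.1 and 190 CPM. In anagen it had 75.0 CPM in suprabasal and 68.9 CPM in upper follicle cells, against 28.3 CPM in stem gate cells. *NRG1* was higher in stem gate than in suprabasal cells in each library, at 27.8 against 3.33 CPM, 19.7 against 0.530 CPM and 30.6 against 5.21 CPM, the reverse of *AREG*.

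Of the receptors, *ERBB3* had 19.2, 33.3 and 13.0 CPM and *ERBB2* 3.72, 8.13 and 2.66 CPM, both highest in catagen. *ADAM17*, the sheddase of amphiregulin, had 49.3, 33.7 and 31.0 CPM, and was higher in suprabasal than in stem gate cells of anagen, at 74.4 against 47.4 CPM. *ADAM10*, a related sheddase, had 62.3, 90.3 and 59.4 CPM. *RHBDF2*, which carries ADAM17 to the cell surface, had 18.4, 10.6 and 15.2 CPM.

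Of the genes that ERBB signalling induces, *ERRFI1*, a feedback inhibitor of EGFR, had 50.2, 40.5 and 19.1 CPM, and *DUSP6*, which inactivates ERK, had 130, 118 and 49.8 CPM. *IER3* had 841, 458 and 405 CPM and *EGR1* had 106, 171 and 50.1 CPM. These 4 genes were more than 2-fold lower in telogen than in anagen, together with *HBEGF* and *EREG*. *LRIG1*, a feedback inhibitor that marks upper follicle stem cells, had 38.0, 40.0 and 30.9 CPM. Within gates, 6, 8 and 8 of the 9 genes of the list seen often enough had odds ratios with *AREG* above 1 in anagen, catagen and telogen, with medians of 1.09, 1.12 and 1.39, where 45.0%, 48.5% and 49.2% of the 3265 genes were above 1. The highest were *IER3* (1.51, 1.66 and 1.88) and *ERRFI1* (1.33, 1.57 and 1.88). *LRIG1* had 0.830, 0.924 and 1.10, and *SOS1*, an adaptor that activates RAS, had 0.880, 1.007 and 0.794.

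**Figure D5:**
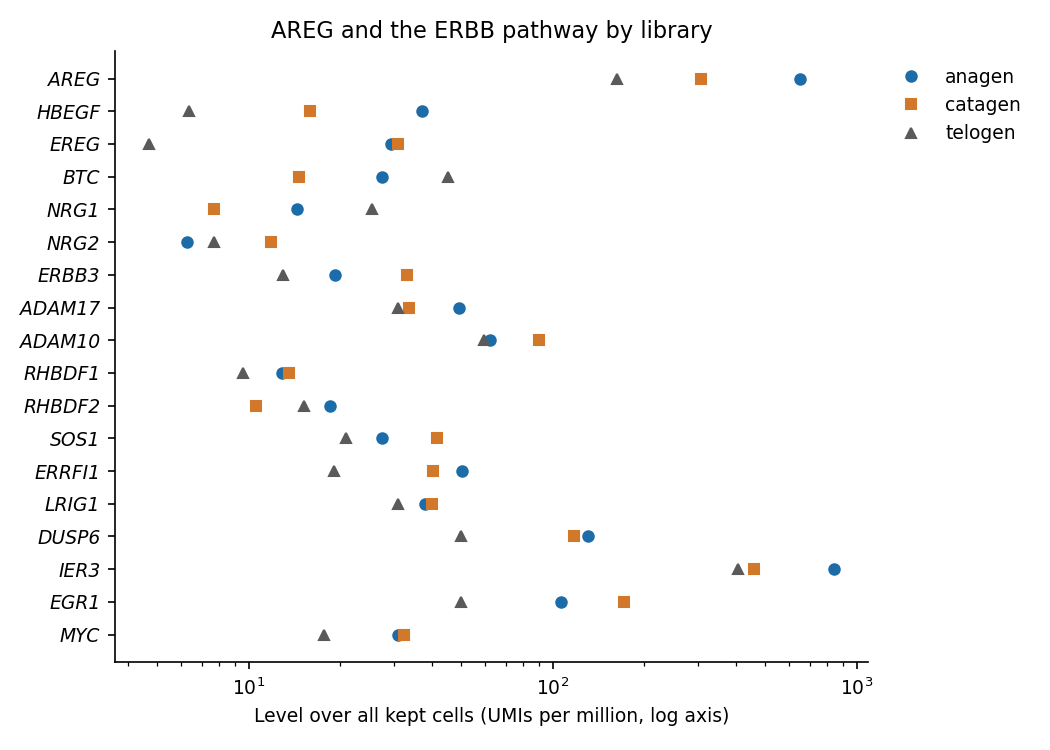
Level over all kept cells (CPM, log axis) of *AREG* and of the 17 ERBB pathway genes that reached 10 CPM, in 3 libraries, to be read along each row and not between genes. *AREG* and *HBEGF* were highest in anagen and lowest in telogen, and *BTC* and *NRG1* were highest in telogen.

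Genes that rise when tissue is dissociated, namely early response genes and heat shock chaperones, are measured here beside *AREG*. Of 16 such genes 14 had a row, and their summed level was 11055 CPM in anagen, 13242 CPM in catagen and 7795 CPM in telogen. It was thus highest in catagen and lowest in telogen, where *AREG* was highest in anagen and lowest in telogen. The chaperones *HSP90AA1*, at 3827, 3441 and 3537 CPM, and *HSPA8*, at 1053, 976 and 895 CPM, are in this sum. Of the 14, 4 were at least 2-fold higher in catagen than in anagen, where 4.41% of all genes were, with a median log2 ratio of 0.73 against 0.05 over all genes. In telogen against anagen 6 were at least 2-fold lower, where 7.83% of all genes were, with a median of −0.53 against −0.17. In telogen against catagen 11 were at least 2-fold lower and 0 higher, where 12.0% and 4.1% of all genes were. The median there was −1.54 against −0.24. Within gates, 13 of 13, 12 of 13 and 13 of 13 of those seen often enough had odds ratios with *AREG* above 1, against 45.0%, 48.5% and 49.2% of all genes, with medians of 1.15, 1.33 and 1.76, and *ATF3* had 1.59, 1.67 and 2.54. *EGR1* is in this list and in the ERBB list, so that the counts of these lists are not independent. The part of dissociation in the *AREG* level was not tested. Of 9 target genes of YAP and cAMP signalling 8 had a row, with summed levels of 358, 589 and 140 CPM, and of the 4 that reached 10 CPM 2 were at least 2-fold higher in catagen than in anagen and 4 at least 2-fold lower in telogen than in catagen, where 4.41% and 12.0% of all genes were. Odds ratios with *AREG* could be had for 3 of them: *CCN2* had 0.927, 0.790 and 0.549, *CCN1* had 0.927, 0.962 and 0.784, and *NR4A1* had 1.07, 1.32 and 1.33. *NR4A1* is also among the early response genes above. Within the suprabasal gate *CCN2* had 1.59, 1.39 and 0.717, *CCN1* had 2.46, 1.62 and 1.74, and *NR4A1* had 1.58, 1.21 and 1.49. The pooled values of *CCN1* below 1 thus did not hold in that gate.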

How the data were processed

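The authors deposited 1 matrix of whole UMI counts per gene and cell barcode for each library, with no normalization, as Cell Ranger had written it. The submitters' processing notes name Cell Ranger 2.1.1, while the headers name 4.0.0 (anagen matrix), 3.1.0 (catagen matrix) and 6.0.2 (telogen matrix). The genome build is not given in the sources used here. The counts of cells with at least 200 genes were summed per library or gate and scaled to CPM. Levels carry exact Poisson intervals, shares exact Clopper-Pearson intervals and ratios exact conditional (binomial) intervals, all at 95%. PCR and capture error are not covered. Ratios over all genes used a pseudocount of 1 CPM. Cells were thinned to 1500 UMIs with a fixed seed. The co-detection script was tested on simulated data. Python 3.11.15 with numpy 2.4.6, pandas 2.3.3 and scipy 1.17.1 was used.

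With 1 library per stage, no test was run. The genes, gates and lists were chosen with earlier results of these data known. The named genes were *AREG*, the ERBB, dissociation and YAP lists, the 10 genes whose lowest odds ratio of 3 libraries was highest, the 5 whose highest was lowest, and the 5 most like *AREG* over gates. The division of the stem gate by *LHX2*, the genes shown beside it, the bins of marker levels and the ratio to keratins were chosen after values had been seen. The gate genes *KRT31*, *KRT86*, *CD3E*, *TYROBP* and *DCT* and the check genes *TCHH* and *EGFL7* had no row. The immune, mesenchymal and melanocyte gates held at most 41 cells each and are not described. Alternatives were other cell filters, scalings, gate cuts and depths of thinning.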

Additional observations from a re-analysis of the deposited data

Results flagged for a closer look

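The *AREG* level of the inner root sheath gate moved the other way from that of the suprabasal gate between telogen and both other libraries. Its log2 ratio was 0.18 for telogen over anagen, where suprabasal cells had −1.69, and 0.56 for telogen over catagen, where suprabasal cells had −0.79. The difference was not tested, since there is 1 library per stage, and 1 cell with 74 UMIs carried part of the telogen level. In the endothelial gate the ratio of catagen over anagen was 0.82, where suprabasal cells had −0.90. That value rests on 1 catagen cell with 39 *AREG* UMIs, without which the gate has 0 of them, and the difference was not tested.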

How the results depend on the processing

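*AREG* kept the order anagen, catagen, telogen under each of 7 alternatives, and the suprabasal over stem ratio stayed above 0 under each of 9, in all 3 libraries. Values past the counting interval of the reported ratio were as follows, and the cause was not tested. With at least 1000 genes per cell, catagen over anagen was −0.89, telogen over catagen −1.11, and suprabasal over stem 0.90 in anagen and 1.52 in catagen. With at least 2404 UMIs per cell, catagen over anagen was −0.99, telogen over catagen −0.99 and suprabasal over stem in catagen 1.60. Without the 5% of cells with the most UMIs the stage ratios were −1.27, −2.10 and −0.82, and suprabasal over stem was 1.27 in anagen and 1.90 in catagen. Median-of-ratios scaling gave −1.34, −1.75 and −0.41. Totals without the 20 most abundant genes gave −1.01 for catagen over anagen and −1.0 for telogen over catagen. The mean of each cell's CPM gave −1.34, −2.11 and −0.77, and suprabasal over stem ratios of 1.26 in anagen and 2.08 in catagen.

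For suprabasal over stem in anagen, catagen and telogen, gates cut at 1.5-fold gave 1.11, 1.88 and 1.46, gates cut at 4-fold 0.43, 1.33 and 1.06, and a stem gate of *LHX2* alone 2.71, 3.43 and 3.83. In telogen it was 1.53 without cells in several gates and 1.44 with *KRT10* alone. Shares of suprabasal cells with *AREG* were 81.1%, 68.2% and 42.6% at 3000 UMIs and 91.0%, 70.2% and 54.0% without thinning. Without gates, 43 genes had odds ratios of at least 2 in all libraries, against 16. At anagen gate shares, catagen over anagen was −1.15 with gates cut at 1.5-fold and −1.25 at 4-fold, and telogen over anagen −2.10 at 4-fold. The last 3 values, and requiring 2 of the 4 endothelial genes, which left 15 catagen cells, none with *AREG*, were chosen after seeing the data. No paired analysis was possible because each stage has 1 library.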
